A study of Mus musculus with 24 samples.

Results

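The genes described here build and maintain the primary cilium, the single antenna-like organelle on the apical surface of bile duct cells. They were chosen by symbol, with no measured value in the rule: protein-coding genes of the Ift, Bbs, Nphp, Tctn and B9d families together with Mks1, Cep290, Tmem67, Cc2d2a, Rpgrip1l, Arl13b, Kif3a, Kif3b, Dync2h1 and Ahi1. The rule took 39 of the 49315 genes in the count tables, of which 21811 are protein coding. They are 11 genes of the intraflagellar transport complex IFT-B, 3 of IFT-A, 3 motor genes, 8 of the BBSome and its chaperones, 10 transition zone genes, 3 nephronophthisis genes and the ciliary GTPase gene Arl13b. Tctn2 met the symbol rule but is annotated as a processed transcript in the annotation used, and was left out.

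A cilium is assembled by intraflagellar transport, in which trains made of IFT-B and IFT-A move in both directions. They are carried to the tip by the heterotrimeric kinesin motor and returned to the base by cytoplasmic dynein 2. The BBSome, an adaptor that rides on these trains, moves membrane proteins in and out, and the transition zone at the base gates what enters. In cholangiocytes the cilium senses the flow, osmolality and composition of bile through polycystins and receptors on its membrane, and mutations in many of these genes cause cystic or fibrotic bile duct disease.

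RNA was sequenced from intrahepatic cholangiocytes of male and female mice in 8 groups of 3 libraries. In each sex there were 2 genotypes, wild type (WT) and dnTGFB, each without and with secretin. The dnTGFB line expresses a receptor for TGF-β made dominant negative and is a model of primary biliary cholangitis. As background, its transgene is expressed from a CD4 promoter in T cells, so cholangiocytes are not its target. Secretin, a hormone that stimulates bicarbonate secretion by bile ducts, was given by osmotic minipump at 4 µg per kg per day for 8 weeks from 32 weeks of age, the pump being changed after 1 month. Killing was at 32 weeks for WT without secretin and at 40 weeks for mice with it, so that secretin and age cannot be told apart in WT. For dnTGFB without secretin the sources used here give no age. Each group is labelled as 1 pool of cells from 6 to 8 mice sequenced in triplicate, so p-values cover only the spread between the libraries of a group and say nothing of the spread between mice. Groups were taken from the library titles, with which the genotype label disagreed in 12 libraries.

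Several libraries stood apart from others of their group. Total counts were 1429218 in male dnTGFB library 3 and 6483182 to 104003184 in the other 23. The 13 biliary markers, among them Krt19 and Epcam, were detected in every library, apart from Cftr at 0 counts in male dnTGFB library 3, but their sum ranged from 168 CPM in female WT secretin library 2 to 5798 CPM in male dnTGFB secretin library 1 (CPM, read counts relative to the effective library size set by TMM, the trimmed mean of M-values). The 7 heart muscle markers summed to 54381 to 67893 CPM in 4 female libraries, WT secretin 2 and 3 with dnTGFB 1 and 2. The remaining 8 reached 2387 CPM at most. In male dnTGFB library 3 heart muscle markers took 11166 CPM and 7 neuron markers 4206 CPM, and no heart or neuron marker was at 0 in any library. In male WT secretin the heart muscle markers summed to 719.6 CPM in library 1 and to 32.5 and 37.6 CPM in libraries 2 and 3. Xist, an RNA of female cells, was 34.0 to 42.4 CPM of library totals in the 3 male WT secretin libraries and at most 5.74 CPM in the other 9 male libraries. Ddx3y, a gene of the Y chromosome, was 46.8 to 64.3 CPM in those 4 female libraries and at most 6.02 CPM in the other 8. In male WT library 1 mitochondrial genes took 42.75% of counts, against 9.73% and 9.75% in the other 2, and it was closer to male dnTGFB library 2 (chi-square of 7.3 per gene, where 1 is sampling noise) than to its own group (40.0). Female WT library 2 was closer to female dnTGFB secretin library 1 (1.16) than to its own group (10.55), and female WT secretin library 1 was closer to female dnTGFB secretin library 3 (1.42 against 62.68). Male dnTGFB library 3 differed from its own group by 78.42, so libraries labelled as 1 pool did not all agree within sampling noise. The counts of called genes are given with all libraries and, in males, also without male WT library 1 and male dnTGFB library 3. In females, differences are also given without the 4 libraries with heart muscle transcripts.

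A promoter sequence spanning 250 bases before to 50 after the annotated start was matched by symbol for 33 of the 39 genes (37 promoters, RefSeq, GRCm38.p6). Ift80, Ift81, Ift122 and Tmem67 were among those without a match. Genes of cilium assembly are classic targets of RFX transcription factors, which bind a palindromic element called the X-box, so both strands of each promoter were searched for its arms GTTNCC and GGNAAC with 2 bases of any kind between them, where N is any base. They were found in 4 of the 33 genes (12.1%) and in 143 of 27018 genes with a promoter of this length (0.529%). The 4 promoters are shown because 3 of their genes, Ahi1, Mks1 and Tctn1, return in the results below. Capitals mark the match, and each sequence is given 5′ to 3′ on the strand of its gene: Ahi1 at chr10:20952297-20952596 (plus strand, match from base 22, where the annotated start is base 1), Bbs7 at chr3:36613340-36613639 (minus strand, from 121 bases before the start), Mks1 at chr11:87852965-87853264 (plus strand, from 24 bases before the start) and Tctn1 at chr5:122264411-122264710 (minus strand, from base 37).
Ahi1: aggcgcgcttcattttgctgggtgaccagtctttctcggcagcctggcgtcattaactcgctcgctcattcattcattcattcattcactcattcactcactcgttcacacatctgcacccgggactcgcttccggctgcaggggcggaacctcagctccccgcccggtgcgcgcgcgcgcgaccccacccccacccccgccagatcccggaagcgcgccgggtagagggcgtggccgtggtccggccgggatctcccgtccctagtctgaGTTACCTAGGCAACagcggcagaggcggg
Bbs7: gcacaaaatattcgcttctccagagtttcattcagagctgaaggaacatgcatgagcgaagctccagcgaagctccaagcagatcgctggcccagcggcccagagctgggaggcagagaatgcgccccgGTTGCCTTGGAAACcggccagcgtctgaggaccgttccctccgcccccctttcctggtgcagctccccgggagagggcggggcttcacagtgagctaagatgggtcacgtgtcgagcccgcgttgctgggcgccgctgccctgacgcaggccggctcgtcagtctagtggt
Mks1: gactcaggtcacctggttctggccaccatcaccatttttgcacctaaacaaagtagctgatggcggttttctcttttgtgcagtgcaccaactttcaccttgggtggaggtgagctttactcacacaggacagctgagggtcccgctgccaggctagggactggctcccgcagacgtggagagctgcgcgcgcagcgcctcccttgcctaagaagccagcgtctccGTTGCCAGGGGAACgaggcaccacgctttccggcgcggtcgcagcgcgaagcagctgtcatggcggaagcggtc
Tctn1: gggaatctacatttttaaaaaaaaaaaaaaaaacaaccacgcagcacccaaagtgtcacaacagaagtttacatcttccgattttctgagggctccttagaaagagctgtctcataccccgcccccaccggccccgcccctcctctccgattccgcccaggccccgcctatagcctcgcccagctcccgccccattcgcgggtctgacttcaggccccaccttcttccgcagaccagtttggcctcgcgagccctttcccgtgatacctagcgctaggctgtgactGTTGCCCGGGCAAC
A form with a single arm, GTTGCCAT (both strands), was in no promoter of the 33 genes and in 1.54% of all genes. The cilium gene promoters had a median GC content of 59.7% and a median of 20 CpG dinucleotides, against 52.7% and 7 over all 32841 promoters. A match is a description of these letters only, and no binding was measured.

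All 39 genes were expressed well enough to be tested in both sexes. Divided by the length of their annotated exons, the levels differed widely between genes. The highest medians over the 24 libraries were those of Ift20, which also has a role at the Golgi, at 33.4 CPM per kb and of the small IFT-A gene Ift43 at 30.5. Ift27, a small GTPase of IFT-B, followed at 11.2 CPM per kb and the kinesin gene Kif3a at 7.68. At the other end were the heavy chain gene of the return motor, Dync2h1, at 0.36 CPM per kb, the transition zone scaffold gene Rpgrip1l at 0.35 and Nphp4 at 0.23. Ift20 (27.2 to 42.5 CPM per kb) and Ift43 (19.0 to 46.8) overlapped each other over the libraries, and neither overlapped Ift27 (5.70 to 16.9). Kif3a reached 23.1 CPM per kb in male dnTGFB library 3 and so overlapped Ift43 and Ift27 but not Ift20.

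**Figure D1:**
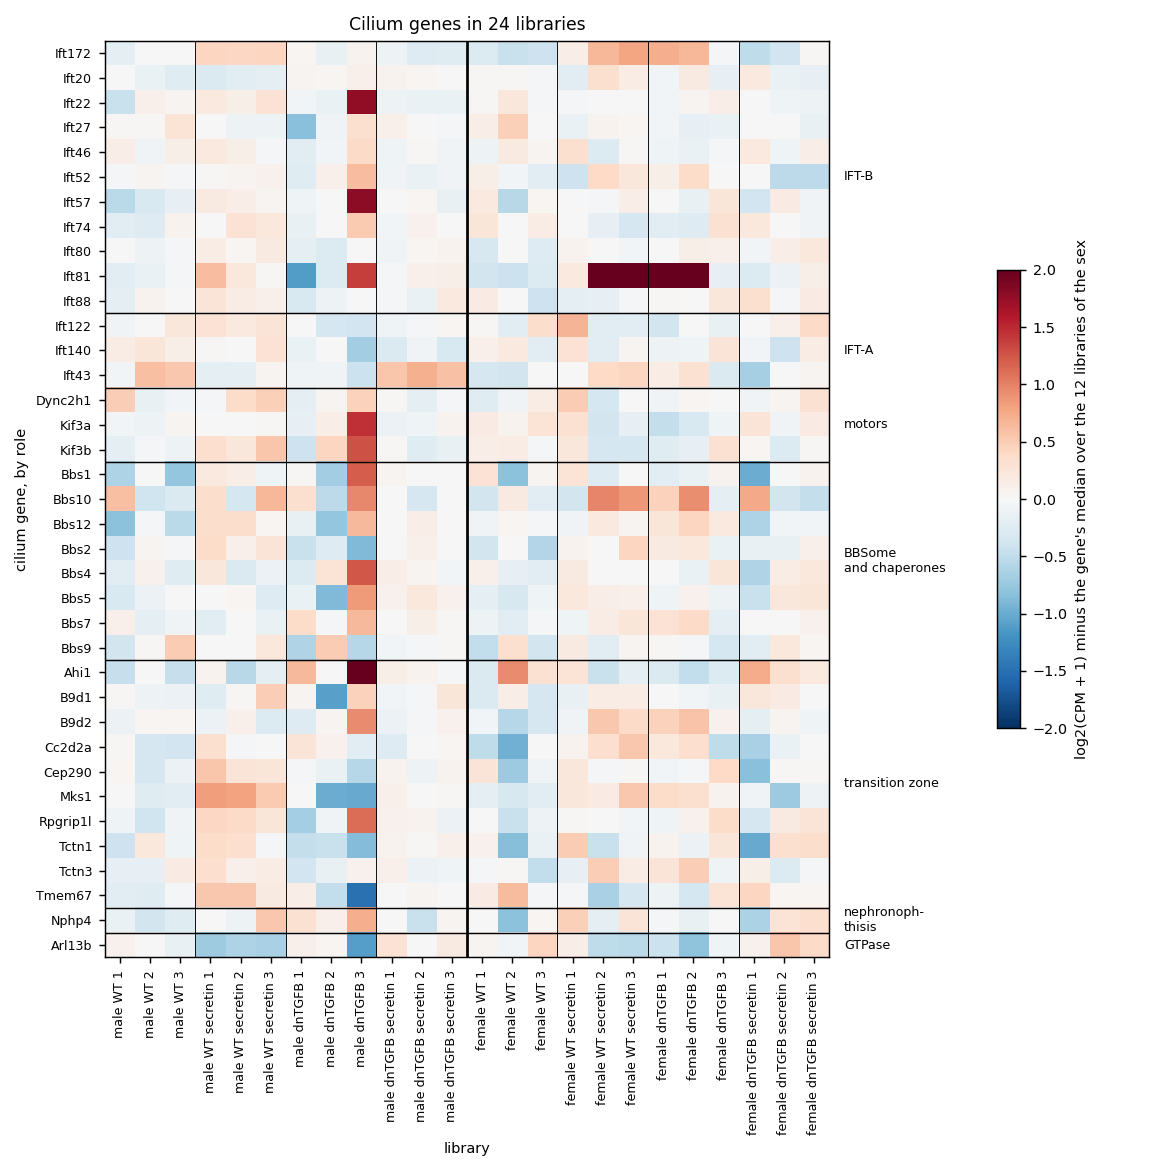
Heat map of 37 of the 39 cilium genes (rows, by role) in the 24 libraries (columns); colour is log2(CPM + 1) minus the gene's median over the 12 libraries of the sex, from −2 (blue) to 2 (red). Most cells are pale; male dnTGFB library 3 departs over many rows, and Ift81 is high in the 4 female libraries with heart muscle transcripts.

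As a sum, the cilium genes moved little while the biliary markers moved much. The 39 genes summed to 440.5 to 587.0 CPM in 23 libraries and to 727.7 CPM in male dnTGFB library 3. Group means were 464 ± 16.7 (SD, n = 3) CPM in male WT, 512 ± 10.7 in male WT secretin, 543 ± 160.0 in male dnTGFB and 487 ± 1.76 in male dnTGFB secretin. In females they were 454 ± 5.99, 556 ± 38.4, 528 ± 56.4 and 467 ± 22.4 CPM in the same order. The means of the biliary marker sum in those groups ran from 1030 CPM in male dnTGFB to 5730 CPM in male dnTGFB secretin. The ratio of the highest to the lowest library had a median of 3.35 over the 39 genes and 7.31 over all 18393 genes tested in both sexes. CPM were scaled within each sex, so these ratios join the scales of both sexes. Without the 6 libraries that stood apart these medians were 2.14 and 3.32. Over those 18 libraries Ift20 and Kif3a varied least, each 1.44-fold, and Bbs10 (16.9-fold), Nphp4 (7.71-fold) and Mks1 (5.63-fold) varied most. Bbs10 and Nphp4 were the genes of lowest level, at medians of 1.13 and 1.36 CPM. In bulk RNA, fewer cells of a type and less RNA per cell cannot be told apart.

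**Figure D2:**
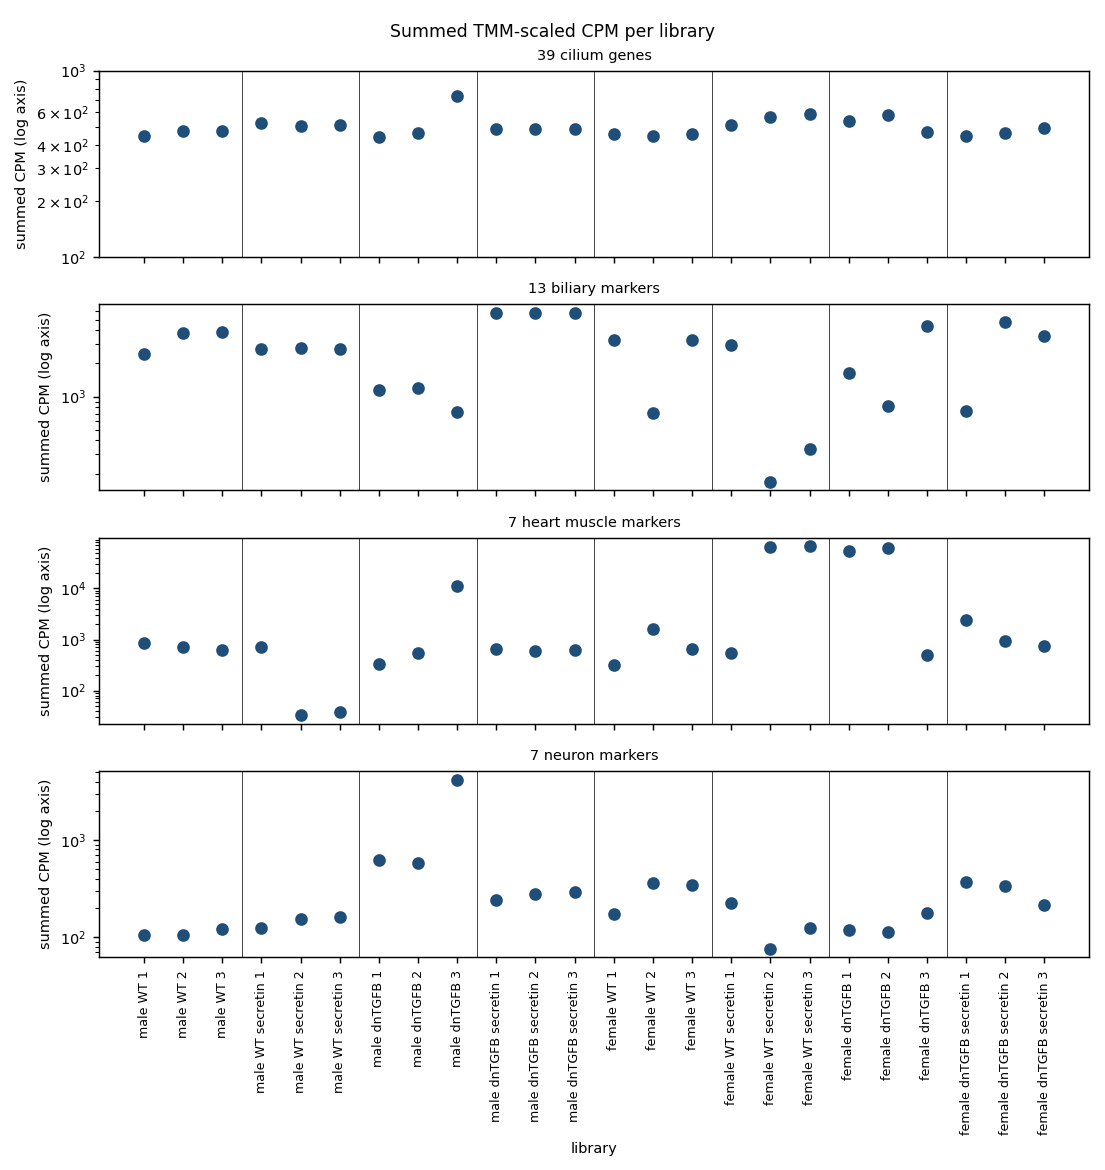
Summed TMM-scaled CPM (log axes) in each of the 24 libraries for the 39 cilium genes, 13 biliary markers, 7 heart muscle markers and 7 neuron markers; each point is a library. The cilium sum stays between 440.5 and 727.7 CPM while the biliary sum runs from 168 to 5798 CPM.

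The comparison of male dnTGFB with male WT asks how cholangiocytes of the disease model differ from healthy ones. 1 of the 39 cilium genes, Ahi1, passed an adjusted p of 0.05 (edgeR quasi-likelihood test, Benjamini-Hochberg over all genes). That is 2.56% of them, where 17.0% of all 18777 genes tested passed. An unadjusted p of 0.05 was passed by 5 of the 39 and by 6314 of the 18777 genes. The median log2 difference was 0.05 over the 39 genes and 0.01 over all genes tested. For 24 of the 39 genes the 95% interval of the difference lay within 2-fold in either direction, as it did for 34.3% of all genes.

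Ahi1 encodes jouberin, a transition zone protein mutated in Joubert syndrome (chromosome 10, 20952547 to 21080429, plus strand, ENSMUSG00000019986; GRCm38, as for all positions below). Its level was 5.58, 8.05 and 5.60 CPM in WT and 13.3, 8.06 and 49.3 CPM in dnTGFB (log2 1.76 ± 0.54 SE, edgeR adjusted p = 0.0453). The groups did not overlap, but dnTGFB library 3 stood far above the other 2, one of which, at 8.06 CPM, was level with the highest WT library. The 7 neuron markers summed to 4206 CPM in library 3, to 621 and 575 CPM in the other 2 and to 105 to 122 CPM in WT. Ahi1 is also expressed in neurons, and the part of neuron transcripts in its level was not tested. Without dnTGFB library 3 the difference was 0.72 (edgeR adjusted p = 0.0423). Without that library and WT library 1 the difference was 0.63 (adjusted p = 0.0464). The call was kept in 3 of the 12 fits that leave out 1 male library.

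Non-overlapping libraries were found for 7 of the 39 genes, 4 higher and 3 lower in dnTGFB, against 32.7% of all genes tested. Ift57, an IFT-B subunit that binds kinesin, was 10.5, 12.6 and 13.9 CPM in WT and 14.8, 15.8 and 57.0 CPM in dnTGFB, with the highest value again in library 3 (log2 1.15 ± 0.42, edgeR adjusted p = 0.0841). Nphp4 was 1.17, 0.85 and 1.01 against 1.96, 1.57 and 2.94 CPM (adjusted p = 0.138). On the low side, Ift43 was 21.02, 33.8 and 32.3 CPM in WT and 20.4, 20.8 and 15.9 CPM in dnTGFB (log2 −0.59 ± 0.19, edgeR adjusted p = 0.058). WT library 1 was barely above the dnTGFB libraries, and without it the difference was −0.78 (adjusted p = 0.012). Tctn1 (log2 −0.51), Ift140 (−0.39) and Ift20 (0.19) completed the 7.

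By role, the 3 IFT-A genes all had negative differences in dnTGFB, from −0.59 to −0.27, with none past the test. Of the 11 IFT-B genes 7 were positive (median 0.17), of the 3 motors 2 (median 0.65), of the 8 BBSome genes 6 (median 0.35) and of the 10 transition zone genes 4 (median −0.09). dnTGFB library 3 stood apart in several of these genes: Kif3a stood at 82.8 CPM there against 26.3 and 32.3 in the other 2, Kif3b at 51.1 against 15.2 and 28.2, Ift22 at 51.7 against 13.9 and 13.1, and Bbs4 at 24.1 against 7.73 and 11.8. Without WT library 1 and dnTGFB library 3 the median over the 39 genes was −0.14, and 7 of them passed the test, against 47.4% of all genes. Among them Ahi1, Cc2d2a (0.57) and Ift20 (0.24) were higher, and Ift43 (−0.68, edgeR adjusted p = 4.2e-05), Ift27 (−0.60) and Tctn1 (−0.57) were lower. Beside these values, 11 of 13 biliary markers fell, with sums of 2412 to 3830 CPM in WT and 724 to 1206 in dnTGFB. All 7 neuron markers rose, with sums of 105 to 122 CPM in WT and 575 to 4206 in dnTGFB, and all 5 B cell and all 5 macrophage markers fell. None of 8 hepatocyte markers passed (median log2 1.21), with sums of 2602 to 8674 CPM of library totals in WT and 3142 to 11730 in dnTGFB. The mitochondrial share was 55.07%, 55.03% and 11.44% in dnTGFB libraries 1 to 3, and WT had 42.75%, 9.73% and 9.75%. The part of these markers and of the mitochondrial share in the result was not tested. DESeq2 called 3 of the 39 genes (Ahi1, Ift57 and Ift43), where it called 26.6% of all genes, and limma-voom called 0, against 17.3%.

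Giving secretin to male WT mice was accompanied by small positive differences over most cilium genes. The median log2 difference was 0.22 over the 39 genes and 0.00 over all protein-coding genes, and 9 of 11 IFT-B, 6 of 8 BBSome, 9 of 10 transition zone genes and all 3 motors were positive. 1 gene, Ift172, passed the test (2.56%, against 6.22% of all genes). An unadjusted p of 0.05 was passed by 6 of the 39 and by 3912 of all 18777 genes. Libraries of both groups did not overlap for 17 of the 39 genes, 15 higher and 2 lower, where 43.4% of all genes did not. The 95% interval lay within 2-fold for 24 of the 39 genes and for 42.3% of all genes.

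Ift172, the largest IFT-B subunit, which contacts the tip machinery where trains turn around (chromosome 5, 31253277 to 31291116, minus strand, ENSMUSG00000038564), was 24.4, 27.8 and 28.3 CPM in WT and 38.0, 37.7 and 38.0 CPM in WT secretin. All 3 treated libraries lay above all 3 untreated ones (log2 0.50 ± 0.12, 95% interval 0.24 to 0.76, edgeR adjusted p = 0.032). Leaving out any 1 of the 12 male libraries kept the difference between 0.43 and 0.54, but adjusted p fell under 0.05 in only 3 of the 12 fits, those without a dnTGFB library.

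Mks1, a B9-domain protein of the transition zone mutated in Meckel syndrome (chromosome 11, 87853215 to 87863803, plus strand, ENSMUSG00000034121), did not pass. It was 3.33, 2.68 and 2.78 CPM in WT and 6.78, 6.58 and 5.25 CPM in WT secretin, again with no overlap (log2 1.08 ± 0.33, edgeR adjusted p = 0.0789; DESeq2 adjusted p = 0.00036, limma-voom 0.0121). Other transition zone genes leaned the same way without passing: Tmem67 (log2 0.67, adjusted p = 0.252), Rpgrip1l (0.61, 0.402) and Cep290 (0.58, 0.169). Bbs12, a chaperonin-like gene needed for BBSome assembly, had the largest difference of all, 1.19, from 0.42, 1.45 and 0.73 CPM in WT to 2.18, 2.21 and 1.57 CPM in WT secretin (adjusted p = 0.232).

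Arl13b had a difference of the opposite sign. This small GTPase of the ciliary membrane, mutated in Joubert syndrome and widely used as a cilium marker (chromosome 16, 62793685 to 62847040, minus strand, ENSMUSG00000022911), was 29.4, 27.8 and 24.9 CPM in WT and 16.5, 17.7 and 17.2 CPM in WT secretin. All treated libraries lay below all untreated ones (log2 −0.67 ± 0.24, edgeR adjusted p = 0.129; DESeq2 adjusted p = 0.0143, limma-voom 0.0263). Ift43 was 19.0, 18.9 and 22.7 CPM in WT secretin, below WT libraries 2 and 3 but level with WT library 1 (log2 −0.53 ± 0.19, adjusted p = 0.129).

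The call depended on the libraries in the fit. Without male WT library 1 and male dnTGFB library 3, 10 of the 39 genes passed (40.5% of all genes did). Mks1 (1.18), Cep290 (0.69), Rpgrip1l (0.67), Tmem67 (0.64), Cc2d2a (0.50), Kif3b (0.46), Ift172 (0.43) and Ift57 (0.39) were higher, and Ift43 (−0.72, edgeR adjusted p = 2.48e-06) and Arl13b (−0.62, adjusted p = 3.72e-05) were lower. Leaving out dnTGFB library 3 alone, which is in neither group, gave 9 calls (30.7% of all genes), and a fit of the 6 libraries of both groups gave 7 (28.3% of all genes), among them Arl13b (adjusted p = 0.00151) and Mks1 (0.0058). Pancreatic acinar markers moved with this comparison, 5 of 6 rising from a sum of 34.0 to 68.2 CPM of library totals in WT to 133.6 to 136.5 in WT secretin. Of the mesothelial markers 4 of 5 rose (32.4 to 63.0 against 131.3 to 143.0 CPM), of the stellate cell and fibroblast markers 3 of 7, and all 5 B cell markers fell. None of 8 hepatocyte markers passed (median log2 0.49), with sums of 2602 to 8674 CPM of library totals in WT and 13755 to 14414 in WT secretin. The Xist counts are in all 3 WT secretin libraries, so this comparison cannot be given without them. Mitochondrial genes took 19.38% to 19.46% of counts in WT secretin. The part of these markers and of the mitochondrial share in the result was not tested. 2 of 13 biliary markers fell, with sums of 2686 to 2742 CPM in WT secretin.

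In male dnTGFB mice, secretin was accompanied by higher levels of Ift43 and Tctn1. These 2 of the 39 genes (5.13%) passed the test, against 22.6% of all genes. An unadjusted p of 0.05 was passed by 4 of the 39 and by 7145 of all 18777 genes. The median difference was −0.03 over the 39 genes and −0.05 over all genes. Libraries did not overlap for 5 genes, 4 higher and 1 lower (41.1% of all genes). The 95% interval lay within 2-fold for 20 of the 39 genes and for 33.7% of all genes.

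Ift43, a small subunit that stabilises the IFT-A complex (chromosome 12, 86082561 to 86162458, plus strand, ENSMUSG00000007867), was 20.4, 20.8 and 15.9 CPM without and 32.4, 36.3 and 33.1 CPM with secretin (log2 0.81 ± 0.19, 95% interval 0.39 to 1.24, edgeR adjusted p = 0.0175). The treated libraries were at the level of WT libraries 2 and 3. The comparison with WT uses the same dnTGFB libraries, so the lower level there and the higher level here are not independent. The difference held at 0.72 (adjusted p = 9.15e-06) without dnTGFB library 3 and WT library 1.

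Tctn1, a tectonic protein of the transition zone that takes part in Hedgehog signalling (chromosome 5, 122237848 to 122264460, minus strand, ENSMUSG00000038593), was 8.77, 8.99 and 6.46 CPM without and 13.2, 12.7 and 13.5 CPM with secretin (log2 0.66 ± 0.21, edgeR adjusted p = 0.0456; limma-voom adjusted p = 0.0924). No treated library overlapped an untreated one, and the call was kept in 3 of the 12 fits that leave out 1 library. Tctn1 shares 19.0% of its exon bases with Hvcn1 on the opposite strand, and since the strand setting of the counting is not given, their reads may not be separated. Mks1 was 3.35, 1.20 and 1.17 CPM in dnTGFB, from as few as 2 reads in library 3, and 3.68, 3.36 and 3.44 CPM with secretin (log2 0.77 ± 0.36, adjusted p = 0.145). Ahi1 was 8.85, 8.53 and 7.93 CPM with secretin, a range that holds dnTGFB library 2 and lies below libraries 1 and 3, with a difference of −1.37 ± 0.53 that did not pass (adjusted p = 0.0839).

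The motors had negative differences (median −0.66 over 3 genes), as had 8 of 11 IFT-B genes, and dnTGFB library 3 was again the highest for Kif3a and Kif3b. Without that library and WT library 1 the median over the 39 genes was 0.09, and 6 genes passed, all higher with secretin, against 46.6% of all genes, among them Ift81 (0.76), Bbs5 (0.73), Ift43, Tctn1 (0.57) and Bbs2 (0.41). Scaling by library totals in place of TMM moved the median of all genes to 0.75 and called 10 of the 39 genes higher, and relative to that median the cilium genes, at 0.67, lay lower. All 13 biliary markers rose in this comparison (724 to 1206 against 5692 to 5798 CPM), as did 5 of 5 macrophage and 4 of 6 pancreatic acinar markers. All 7 neuron markers fell (575 to 4206 against 244 to 292 CPM). Of 8 hepatocyte markers 3 fell, and the median log2 difference over the 8 was −2.11. They summed to 3142 to 11730 CPM of library totals in dnTGFB and to 3739 to 3754 in dnTGFB secretin. The mitochondrial share of counts was 5.31% to 5.66% in dnTGFB secretin, below the 11.44% to 55.07% of dnTGFB. The part of these markers and of the mitochondrial share was not tested.

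**Figure D3:**
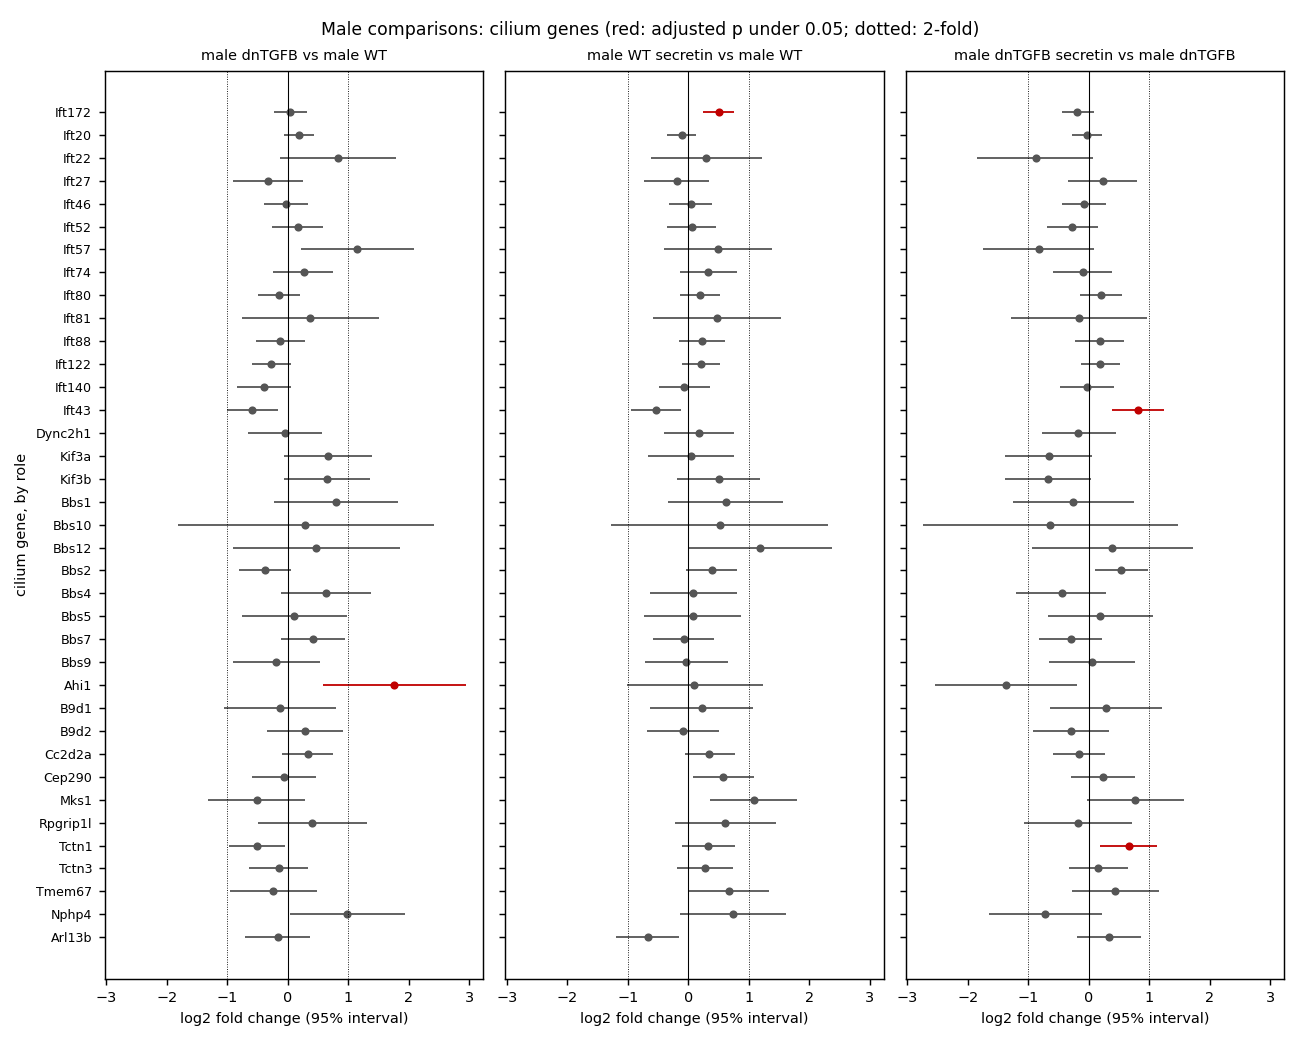
Log2 fold change with its 95% interval for 37 of the 39 cilium genes (rows, by role) in the 3 male comparisons; red marks an adjusted p under 0.05 and dotted lines a 2-fold change. 4 points are red, Ift172, Ahi1, Ift43 and Tctn1, and most other intervals cross 0.

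Whether the difference with secretin was the same in both male genotypes was tested with an interaction term, the log2 difference in dnTGFB minus that in WT. Ift43 and Ift172 passed, in opposite directions (5.13% of the 39 genes, against 15.6% of all genes). An unadjusted p of 0.05 was passed by 6 of the 39 and by 6420 of all 18777 genes. For Ift43 the difference with secretin was −0.53 in WT and 0.81 in dnTGFB, an interaction of 1.34 ± 0.27 (edgeR adjusted p = 0.0102). It stayed between 1.24 and 1.54, with adjusted p under 0.05, when any 1 male library was left out, and was 1.44 (adjusted p = 2.07e-08) without both libraries that stood apart. For Ift172 the values were 0.50 and −0.19, an interaction of −0.68 ± 0.17 (adjusted p = 0.0239), and the term passed in 4 of the 12 fits without 1 library, not with library totals in place of TMM (−0.14, adjusted p = 0.861) and not with a replicate block (−0.68, adjusted p = 0.0517). For Arl13b they were −0.67 and 0.34, an interaction of 1.01 ± 0.34 (adjusted p = 0.0637), and 0.72 (adjusted p = 0.000397) without both libraries. The remaining genes that passed there were Ift27 (0.70) on the positive side and Cc2d2a (−0.75) and Kif3b (−0.67) on the negative side.

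**Figure D4:**
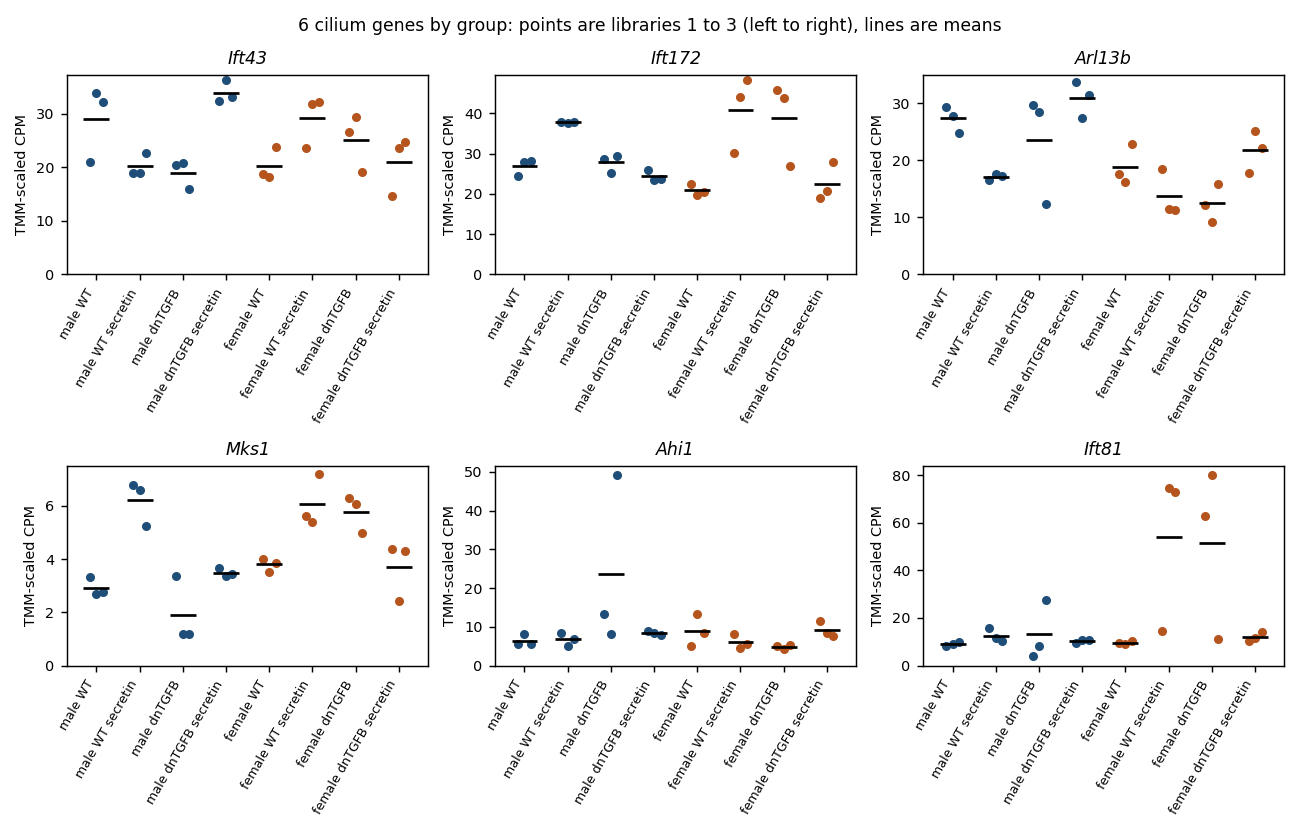
TMM-scaled CPM of 6 cilium genes in the 8 groups; points are libraries 1 to 3 from left to right (blue male, orange female), lines are group means, and each axis starts at 0. Ift43 and Arl13b are lower in male WT secretin than in male dnTGFB secretin, and the 4 high points of Ift81 are female WT secretin 2 and 3 and female dnTGFB 1 and 2, at 62.9 to 80.1 CPM.

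In females, edgeR called none of the 39 cilium genes in dnTGFB against WT, in WT secretin against WT or in dnTGFB secretin against dnTGFB, and it called 0.0% of all 19882 genes tested. At an unadjusted p of 0.05 there were 4, 6 and 4 cilium genes in those comparisons, and 3859, 5263 and 3626 of all 19882 genes. DESeq2 called 1, 2 and 0 cilium genes, where it called 3.69%, 13% and 2.07% of all genes, and limma-voom called 0 in each. Without the 4 libraries with heart muscle transcripts WT secretin and dnTGFB keep 1 library each, so that only differences are given for that fit. The dnTGFB library kept, library 3, was closer to female WT library 1 (chi-square of 4.85 per gene) than to its own group (47.46). The WT secretin library kept, library 1, was closer to female dnTGFB secretin library 3 (1.42) than to its own group (62.68). Libraries did not overlap for 9 of the 39 genes in each comparison, where 22.9%, 23.7% and 17.6% of all genes did not. The medians over the 39 genes were 0.20, 0.17 and −0.08, and over all genes 0.10, 0.11 and −0.02. Without the 4 libraries the medians over the 39 genes were 0.06, 0.22 and 0.08. The 95% interval lay within 2-fold for 23, 19 and 23 of the 39 genes, against 21.9%, 20.5% and 22.7% of all genes. For the other cilium genes it reached past 2-fold on at least 1 side.

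Ift81 had the largest differences. With Ift74 it forms the tubulin-binding module of IFT-B (chromosome 5, 122550204 to 122614518, minus strand, ENSMUSG00000029469). Its CPM values were 9.57, 9.12 and 10.3 without secretin and 14.7, 74.7 and 73.0 with it in WT, and 62.9, 80.1 and 11.2 without and 10.4, 11.6 and 13.9 with it in dnTGFB. The 4 high values are those of the 4 libraries with the heart muscle transcripts, and the remaining library of each of those 2 groups stood at 14.7 and 11.2 CPM, near the 9.12 to 13.9 CPM of the groups without them. Ift74, its partner, did not share this pattern, at 8.02, 7.08 and 6.20 CPM in WT secretin and 6.73, 6.56 and 10.2 in dnTGFB.

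Other cilium genes split along the same 4 libraries. Ift172 was 44.0 to 48.2 CPM in them and 19.0 to 30.2 CPM in the other 8 female libraries. The transition zone gene B9d2 was 12.1 to 13.9 against 5.76 to 9.71 CPM. Arl13b and Kif3a were lower in them, at 9.25 to 12.2 against 15.8 to 25.2 CPM and at 16.9 to 21.1 against 22.4 to 29.7 CPM. In none of these 5 genes, Ift81 included, did the 4 libraries overlap the other 8. Nor did they for further cilium genes, among them Ift43, at 26.5 to 32.2 against 14.7 to 24.7 CPM. Ift52, Bbs7, Cc2d2a and Tctn3 were also higher in the 4 libraries, and Ift74 and Tmem67 were lower. The share of all genes that split this way was not counted. The genes named were chosen after their values were seen. The 4 libraries come from 2 groups, so the split is a description and not a test of a condition.

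The female interaction called Ift81 (−4.59 ± 0.99, edgeR adjusted p = 0.0408) and Ift172 (−1.76 ± 0.37, adjusted p = 0.0408), both lower, against 18.0% of all genes. An unadjusted p of 0.05 was passed by 8 cilium genes and by 7669 of all 19882 genes. All 7 heart muscle markers passed in the same direction, with a median of −10.53. Without the 4 libraries the interaction was −0.43 for Ift81 and −0.71 for Ift172. In that fit WT secretin and dnTGFB keep 1 library each, which is taken to vary like the other groups. limma-voom called neither gene (adjusted p = 0.105 and 0.101), and each call was kept in 2 of the 12 fits that leave out 1 female library.

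The following 7 genes, which stand for parts of the machinery, were given in every library whatever their test.
Ift88, the IFT-B subunit known as polaris, whose loss shortens cilia in the Oak Ridge polycystic kidney mouse, was 7.65, 9.24 and 8.70 without secretin and 10.6, 9.77 and 9.50 with it in WT, and 6.92, 8.06 and 8.81 without and 8.52, 7.85 and 10.1 with it in dnTGFB (CPM, males). In females it was 9.03, 8.00 and 5.72 without secretin and 6.80, 6.91 and 7.65 with it in WT, and 8.01, 7.82 and 9.47 without and 10.1, 7.64 and 9.02 with it in dnTGFB. It varied 1.86-fold over all 24 libraries, and its largest difference in the 6 pairwise comparisons was 0.22, in male WT secretin, with a 95% interval of −0.16 to 0.61.

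Kif3a is a motor subunit of the kinesin that carries IFT trains outward. In male WT its level was 28.2, 27.4 and 30.6 without secretin and 29.8, 29.2 and 30.2 with secretin. In male dnTGFB its level was 26.3, 32.3 and 82.8 without and 27.2, 27.7 and 31.0 with secretin. Female levels were 26.9, 25.1 and 29.0 without secretin and 29.7, 18.3 and 21.1 with it in WT, and 16.9, 19.1 and 22.4 without and 28.8, 22.6 and 26.8 with it in dnTGFB. Apart from male dnTGFB library 3, male levels ran within 26.3 to 32.3 CPM. Dync2h1, the heavy chain of the return motor, was 9.06, 5.45 and 5.88 without secretin and 5.95, 8.19 and 8.98 with it in WT, and 5.31, 6.39 and 8.81 without and 6.27, 5.24 and 6.03 with it in dnTGFB in males. The female values were 4.56, 5.28 and 6.27 without secretin and 8.34, 4.17 and 5.63 with it in WT, and 5.25, 5.72 and 5.51 without and 5.27, 5.82 and 7.15 with it in dnTGFB. All its groups overlapped in each pairwise comparison.

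Bbs4, a BBSome subunit linked to pericentriolar satellites, was 8.12, 10.2 and 7.98 without secretin and 11.3, 7.70 and 8.77 with it in WT, and 7.73, 11.8 and 24.1 without and 10.6, 9.94 and 9.22 with it in dnTGFB in males. In females it was 7.69, 6.24 and 6.00 without secretin and 8.23, 7.11 and 7.13 with it in WT, and 7.04, 6.41 and 8.60 without and 4.35, 8.04 and 8.43 with it in dnTGFB. It shared the high value of male dnTGFB library 3, and no difference passed (adjusted p of 0.211 to 0.925 over the male comparisons of pairs of groups).

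Cep290, a protein of the links between axoneme and membrane, was 5.02, 3.66 and 4.43 without secretin and 7.65, 5.99 and 5.93 with it in WT, and 4.73, 4.35 and 2.94 without and 5.14, 4.48 and 5.15 with it in dnTGFB in males. Female levels were 5.99, 2.56 and 4.61 without secretin and 5.90, 4.80 and 5.0 with it in WT, and 4.64, 4.79 and 6.77 without and 2.30, 4.95 and 4.99 with it in dnTGFB. The male WT secretin libraries were above all 3 WT libraries, and Cep290 shares 9.69% of its exon bases with 4930430F08Rik on the opposite strand. Tmem67, or meckelin, a membrane protein of the transition zone whose human counterpart is mutated in disease with liver fibrosis, was 5.72, 5.58 and 6.57 without secretin and 10.3, 10.3 and 7.77 with it in WT, and 7.50, 4.54 and 1.76 without and 6.80, 7.05 and 6.73 with it in dnTGFB in males. The female values were 8.23, 11.8 and 7.01 without secretin and 7.07, 4.27 and 5.56 with it in WT, and 6.70, 5.51 and 9.02 without and 10.1, 7.47 and 7.54 with it in dnTGFB. In males the WT secretin libraries were the highest 3.

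Arl13b in dnTGFB was 29.7, 28.4 and 12.3 CPM in males, where library 3 was lowest, and 33.8, 27.4 and 31.4 in dnTGFB secretin. Female levels were 17.5, 16.1 and 22.9 without secretin and 18.5, 11.5 and 11.2 with it in WT, and 12.2, 9.25 and 15.8 without and 17.8, 25.2 and 22.1 with it in dnTGFB. The female dnTGFB secretin libraries were above the dnTGFB libraries (log2 0.81 ± 0.29, adjusted p = 0.266).

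Genes that act beside this machinery were read from companion lists in males. The shares of all genes called were 17.0% in dnTGFB against WT, 6.22% in WT secretin against WT and 22.6% in dnTGFB secretin against dnTGFB. Of 22 tested genes that complete the IFT trains, BBSome and motors, 1 passed in dnTGFB against WT (17.0% of all genes did): the kinesin gene Kif3c, higher by 2.32 ± 0.62, was 12.7, 13.8 and 13.7 CPM in WT against 22.5, 24 and 164 in dnTGFB, again led by library 3. With secretin in dnTGFB, Tulp3, an adaptor that couples receptors to IFT-A, rose by 0.82 ± 0.18 (adjusted p = 0.0116), from 14.7, 17.4 and 11.2 to 28.2, 26.8 and 23.6 CPM, and Kif3c fell by 1.96 ± 0.61 (2 of 22, against 22.6% of all genes). Without male WT library 1 and dnTGFB library 3 the Kif3c differences were 0.75 and −0.43. Of 15 further transition zone and inversin genes, Glis2 fell in dnTGFB (−0.97 ± 0.24), 1 of 15 against 17.0% of all genes. With secretin in dnTGFB, Glis2 (1.17 ± 0.24), the inversin-compartment kinase gene Nek8 (1.12 ± 0.20) and Tmem237 (0.61 ± 0.18) rose and Rpgrip1 fell, 4 of 15 against 22.6%. Of 12 basal body genes, Cep89 of the distal appendages fell in dnTGFB (−0.87 ± 0.21) and rose with secretin (0.64 ± 0.21), 1 of 12 in each comparison against 17.0% and 22.6% of all genes.

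Of 9 genes for receptors and channels of the cholangiocyte cilium, 4 fell in male dnTGFB, where 17.0% of all genes were called: Pkhd1, encoding fibrocystin, by 1.43 ± 0.35 (36.7, 45.1 and 46.2 CPM in WT, 21.1, 18.7 and 4.11 in dnTGFB), the purinergic receptor gene P2ry12 by 2.49 ± 0.35, the adenylyl cyclase gene Adcy6 by 0.67 ± 0.13 and Pkd2, encoding polycystin-2, by 0.65 ± 0.19. With secretin in dnTGFB 4 rose, where 22.6% of all genes were called: Pkhd1 (1.82 ± 0.35), the Hedgehog receptor gene Ptch1 (0.87 ± 0.19), Pkd2 (0.81 ± 0.19) and Adcy6 (0.54 ± 0.13). Both comparisons share the dnTGFB libraries. With secretin in WT, Smo rose by 1.01 ± 0.25 and P2ry12 fell by 1.90 ± 0.30 (2 of 9, against 6.22% of all genes). The biliary markers moved in the same directions, Krt19 by −1.58 ± 0.28 and Epcam by −1.78 ± 0.24 in dnTGFB and by 2.24 ± 0.29 and 2.61 ± 0.24 with secretin in dnTGFB, and their part in these values was not tested.

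Of 8 cilium disassembly genes 4 fell in male dnTGFB (17.0% of all genes were called), Stil, Kif24, Plk1 and Nek2, all of which also serve centriole or mitotic functions. Stil was 2.11, 1.28 and 1.49 CPM in WT and 0.35, 0.09 and 0.00 in dnTGFB, a low level, and Nek2 also fell with secretin in WT (−1.32 ± 0.29). Of 8 tested transcription factors of cilium genes, 2 fell in dnTGFB (against 17.0% of all genes called), among them Rfx7 (−0.61 ± 0.13). With secretin in dnTGFB 4 rose (against 22.6%), among them Rfx3 (1.35 ± 0.34), Glis3 (1.24 ± 0.34) and Foxj1 (1.07 ± 0.24). Foxj1, the factor of motile cilia, also rose with secretin in WT, by 2.08 ± 0.22 (edgeR adjusted p = 0.000624), from 5.77, 3.88 and 4.55 to 17.7, 17.1 and 25.1 CPM. Of 15 tested motile cilium genes 3 rose in that comparison (against 6.22% of all genes called), Foxj1, Ccdc39 (1.18 ± 0.28) and Tppp3 (0.82 ± 0.14). Dnah5 fell in dnTGFB (−2.32 ± 0.56), 1 of 15 against 17.0% of all genes. With secretin in dnTGFB 2 of the 15, Foxj1 and Dnah5, rose and 1, Tppp3, fell, against 22.6% of all genes. Without male WT library 1 and dnTGFB library 3, the companion genes named here passed again in the same direction, with 1 exception. Dnah5 with secretin in dnTGFB did not pass (1.58, edgeR adjusted p = 0.0534). The shares of all genes called in that fit were 47.4%, 40.5% and 46.6%. Tgfbr2, the gene whose altered form defines the model, passed in none of the 3 male comparisons, and the counts do not separate the transgene from the endogenous gene.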

How the data were processed

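RNA from pooled intrahepatic cholangiocytes was sequenced after poly(A) selection from 500 ng of RNA in 24 libraries, 3 in each of 8 groups. The deposited values are read counts per gene made by the authors and were used as deposited. The sources used here name no aligner or counter and do not say whether strand was used. Gene IDs matched GENCODE M21 (GRCm38) for 49056 of 49315 genes, and 33 of the 39 cilium genes had identical coordinates. Total counts per library were 1429218 to 104003184, and the 39 genes together received 1239 to 41957 counts. The depth limits the precision of the low genes most in the smallest library.

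Males and females were fitted separately, 12 libraries each, with edgeR 4.0.16 (R 4.3.3): filterByExpr by group, TMM scaling within the sex, a robust quasi-likelihood F test, and Benjamini-Hochberg adjustment over all genes tested. Calls were made at an adjusted p under 0.05 whatever the fold. Every adjusted p in the text is edgeR's unless DESeq2 (1.42.0) or limma-voom (limma 3.58.1) is named. Libraries were compared by a chi-square per gene after thinning to 1400000 counts, over genes with at least 10 counts in the pair. Levels were not compared by a test between sexes. Sums and ranges over all 24 libraries join the separate TMM scales of males and females. In lists, the marker sums are TMM-scaled CPM unless they are said to be CPM of library totals.

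Genes were named by a rule: 8 fixed genes in every library (7 of them given), every called gene, those with the largest differences and no overlap, and up to 3 called genes of each companion list. Further genes (Kif3b, Ift22 and Ift74, the split in the 4 female libraries, and called genes beyond 3 in a list) were named after their values were seen. The results of some single genes that the rule would name are not reported here. The members and the companion and marker lists were chosen with earlier results of these data known. Alternatives were other tools, scalings and filters, mitochondrial genes left out, the replicate number as a block, only the compared groups, each library left out in turn, and the libraries that stood apart left out.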

Additional observations from a re-analysis of the deposited data

Results flagged for a closer look

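For a few cilium genes the difference between libraries with and without secretin was not the same in both genotypes, by the interaction term (edgeR quasi-likelihood test). Each group is labelled as 1 pool and the mice given secretin were older in WT, so the term compares these pools, and secretin and age cannot be told apart. In males the genes were Ift172, with an interaction of −0.68 on the log2 scale (adjusted p = 0.0239), and Ift43, with 1.34 (adjusted p = 0.0102). Ift43 passed in all 12 fits without 1 library, and Ift172 in 4 of 12, not with a replicate block (adjusted p = 0.0517) and not with library totals (−0.14, adjusted p = 0.861). In females it was Ift172, with −1.76, and Ift81, with −4.59 (adjusted p = 0.0408 for both). Without the 4 female libraries rich in heart muscle markers the values were −0.71 and −0.43. That fit keeps 1 library each of WT secretin and dnTGFB. Mks1 differed between sexes in direction: with secretin in dnTGFB its log2 difference was 0.77 in males and −0.64 in females, with all libraries of one group above all of the other in each sex. Male dnTGFB library 1, at 3.35 CPM, was level with male dnTGFB secretin library 2, at 3.36 CPM. Male dnTGFB library 3 rests on 2 Mks1 reads. Of the female dnTGFB libraries, 1 and 2, at 6.29 and 6.08 CPM, are rich in heart muscle markers, and library 3 stood at 4.96 CPM, against at most 4.39 CPM with secretin. The difference between sexes was not tested, and neither value passed (adjusted p = 0.145 and 0.292).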

How the results depend on the processing

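For the cilium genes, no direction of a called value reversed under any alternative run. The 7 heart muscle markers called lower in the female interaction did reverse. Without the 4 female libraries rich in them, their values were 1.9 to 2.32. The counts of cilium genes called moved, from 1 in male dnTGFB against WT, 1 in WT secretin against WT, 2 in dnTGFB secretin against dnTGFB and 2 in the interaction. The share of all genes called in the same fit follows each set of counts, and the main shares were 17.0%, 6.22%, 22.6% and 15.6%. In that order DESeq2 called 3, 5, 3 and 4 (26.6%, 16.6%, 33.1% and 28.7% of all genes) and limma-voom 0, 3, 1 and 3 (17.3%, 13.4%, 20.7% and 19.7%). Library totals in place of TMM called 5, 0, 10 and 2 (27.8%, 4.6%, 40.1% and 20.2%), of which the 5 were all lower, with Ahi1 no longer called, and the 10 all higher. They moved the median of all genes to −0.44, 0.19, 0.75 and 0.50. No low-count filter gave 0, 0, 1 and 1 (7.34%, 2.27%, 9.37% and 5.43%), and mitochondrial genes left out 2, 1, 2 and 2 (17.9%, 5.85%, 22.7% and 15.7%). Leaving out the male libraries that stood apart gave 7, 10, 6 and 6 (47.4%, 40.5%, 46.6% and 48.9%). A fit of only the groups compared called 0, 7 and 0 in the comparisons of pairs of groups (0.0%, 28.3% and 2.9%). Leaving out 1 library at a time gave 0 to 5, 0 to 9, 0 to 5 and 1 to 4 calls (6.38% to 34.2%, 1.69% to 30.7%, 5.39% to 37.4% and 5.91% to 37.8%). In females DESeq2 called 1 gene in dnTGFB (3.69%) and 2 in WT secretin (13%), where edgeR called 0. Leaving out 1 library gave 0 to 4 in the latter, 4 without WT secretin library 1 (25.7%). The female interaction went from 2 calls (18.0%) to 8 with DESeq2 (31.6%) and 3 with DESeq2 size factors (14.4%). With limma-voom or library totals it gave 0 (0.0% in each). Without 1 library it gave 0 to 9, 9 without WT secretin library 1 (38.5%). The causes were not tested, apart from the fewer libraries in some fits.

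The replicate number as a block (replicate block) gave 0, 0, 1 and 1 calls in males (11.9%, 3.72%, 15.3% and 10.5% of all genes) and 0 in the female interaction (0.0%). Deviations of same-numbered libraries of different groups correlated above 0.1 in 4 of 18 male and 5 of 18 female pairs. In all, 4 male and 2 female libraries correlated best with their own number. The correlations ran from −0.21 to 0.27 in males, so no male pair was strongly linked. In females they ran from −0.89 to 0.91, too wide a spread to show whether numbers pair libraries.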
